A study of Arabidopsis thaliana with 4 samples.

Results

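The genes described here encode the enzymes that lead from phenylalanine to the precursors of lignin. They are 10 loci of *Arabidopsis thaliana*, chosen by locus identifier: PAL1 (AT2G37040), PAL2 (AT3G53260), PAL3 (AT5G04230), PAL4 (AT3G10340), C4H (AT2G30490), 4CL1 (AT1G51680), 4CL2 (AT3G21240), HCT (AT5G48930), C3H (AT2G40890) and CCR1 (AT1G15950). The table holds 32635 rows with a gene name, and all 10 loci were found in it. For 8 of them the row names that locus alone, while PAL4 and 4CL2 stand in rows merged with a neighbouring gene and are shown apart. All 10 had a p below 1, the condition for a tested row, and no filter on the level itself was applied.

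RNA was sequenced from whole seedlings of the *daz3 tree1* double mutant in the Columbia background, a standard laboratory accession. Both groups carried both mutations, were grown in darkness at 24 °C for 3 days and were then treated for 4 hours. The air group (2 libraries) received hydrocarbon-free air, and the ethylene group (2 libraries) received that air with 10 ppm ethylene, a gaseous plant hormone. The alleles, the number of seedlings per library and whether libraries came from separate cultures are not given in the labels, so the spread behind the p-values may be technical. Wild-type seedlings were not analysed here, and the comparison describes the mutant alone.

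General phenylpropanoid metabolism starts in the cytosol, where phenylalanine ammonia-lyase (PAL) removes the amino group of phenylalanine to give cinnamate. Cinnamate 4-hydroxylase (C4H), a cytochrome P450, and 4-coumarate:CoA ligase (4CL) then make coumaroyl-CoA, from which flavonoids and monolignols branch. On the monolignol route HCT transfers the coumaroyl group to shikimate, the P450 enzyme C3H (CYP98A3) hydroxylates the ring, and cinnamoyl-CoA reductase (CCR1) makes the aldehydes that are reduced to monolignols. In seedlings, lignin is laid down in xylem vessels and in the Casparian strip of the root endodermis.

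The promoters of several of these genes are known to carry AC elements, short cytosine-rich motifs bound by R2R3-MYB factors that switch lignin genes on or off. They are shown because the results below compare the enzymes with such MYB genes. In the RefSeq annotation of the TAIR10.1 build, the 250 bases before the annotated start of each gene were searched on both strands for AC-I (ACCTACC), AC-II (ACCAACC), AC-III (ACCTAAC) and the G-box (CACGTG). Motifs of different name can share letters, but no copies found in the windows shown or counted for the 10 genes overlapped. AC-II was found in 4 of the 10 windows, those of 4CL2, HCT, C3H and CCR1, against 2.69% of 27443 promoters of protein-coding nuclear genes. AC-I and AC-III were found in 0 of the 10 windows, against 1.16% and 2.46% of all promoters. The G-box stood in the window of PAL4 alone, against 6.49% of all promoters. A match describes letters only and is neither a binding site nor a cause. The 5 AC-II copies are given with up to 10 bases on either side, 5′ to 3′ on the strand of the gene, with the motif in capitals.
4CL2, first copy, chr3:7457528-7457554, minus strand: agagtagctcACCAACCcctacatgaa
4CL2, second copy, chr3:7457419-7457445, minus strand: ataacatttcACCAACCacaaattctt
HCT, chr5:19838309-19838335, minus strand: gaacgggtttACCAACCccggatagaa
C3H, chr2:17060658-17060684, minus strand: aaatcggttcACCAACCccctccctaa
CCR1, chr1:5478579-5478602, plus strand: ttcttcttccACCAACCcctcttt
The copies begin 140 and 31 bases before the start of 4CL2, and 90, 22 and 14 bases before those of HCT, C3H and CCR1. Of the 250 bases before 4CL2, 222 lie inside the annotated neighbour ABCC8. Of those before CCR1, 53 lie inside AT1G15940.

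The whole windows of HCT and C3H, which lie in no other annotated gene, are shown with the motif in capitals. The window of PAL1, which holds none of the 4 motifs, is shown for comparison.
HCT, chr5:19838236-19838485, minus strand: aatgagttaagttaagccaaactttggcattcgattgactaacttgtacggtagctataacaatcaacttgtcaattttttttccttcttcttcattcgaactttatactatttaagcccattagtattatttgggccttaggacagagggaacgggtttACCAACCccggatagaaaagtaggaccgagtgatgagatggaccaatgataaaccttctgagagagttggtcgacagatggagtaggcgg
C3H, chr2:17060653-17060902, minus strand: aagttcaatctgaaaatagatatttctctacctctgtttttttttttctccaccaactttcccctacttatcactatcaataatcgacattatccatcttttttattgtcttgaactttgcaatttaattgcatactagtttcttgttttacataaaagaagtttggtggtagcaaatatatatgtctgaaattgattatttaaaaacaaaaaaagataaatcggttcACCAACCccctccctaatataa
PAL1, chr2:15560756-15561005, minus strand: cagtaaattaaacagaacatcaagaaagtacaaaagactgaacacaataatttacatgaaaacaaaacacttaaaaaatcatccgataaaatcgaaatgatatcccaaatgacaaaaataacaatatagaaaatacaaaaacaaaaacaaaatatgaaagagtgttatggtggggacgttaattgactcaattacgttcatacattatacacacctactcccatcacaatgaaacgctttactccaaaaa

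None of the 10 enzymes passed the test for a difference between ethylene and air. Of the 8 genes with a row of their own, 0 were called higher and 0 lower (Benjamini-Hochberg adjustment of the deposited Cuffdiff p-values over all 18696 tested rows, threshold 0.05), against 2.17% of tested rows called higher and 4.18% called lower. At an unadjusted p under 0.05 the count among the 8 was also 0, against 18.8% of tested rows. Of the 2 merged rows, 0 were called and 1 had an unadjusted p under 0.05. The median log2 fold change (ethylene over air) of the 8 genes was 0.13, against -0.02 for all tested rows and 0.26 for 12 reference genes, such as actins and ubiquitins, that are often used as constant. All 12 reference genes had a higher value with ethylene, and 1 of them, EF1A, was called (log2 fold change 0.41, the authors' Cuffdiff p, Benjamini-Hochberg adjusted, 0.0417). The median of the 8 genes was -0.13 when centred on the reference genes, that is, with their median subtracted from every log2 value. It was -0.07 when a smooth trend of log2 fold change with transcript GC content was subtracted. The 95% intervals implied by the deposited p-values all crossed 0 and ran, over the 8 genes, from -0.59 to 0.67, so that all 8 lay within a 2-fold change in either direction. These intervals hold only as far as those p-values measure the spread between libraries. In whole seedlings, fewer cells of a type and less RNA per cell cannot be told apart.

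Levels are the authors' FPKM, 1 value per group without an SD, which is scaled per transcript length and can be compared between genes. In air the order of the 8 levels was HCT (109.9 FPKM), C4H (109.5 FPKM), 4CL1 (89.2 FPKM), CCR1 (85.7 FPKM), PAL1 (59.7 FPKM), C3H (52.3 FPKM), PAL2 (32.6 FPKM) and PAL3 (3.99 FPKM). With ethylene CCR1 stood above 4CL1 and C3H above PAL1, and the rest of the order did not change. Without values per library, it cannot be said which neighbours in this order differ beyond their spread. The levels of HCT and C4H exceeded those of 92.2% of tested rows in air, that of 4CL1 90.2% and that of CCR1 89.8%, while that of PAL3 exceeded 23.9%. The median level of tested rows was 13.0 FPKM in air against 12.5 FPKM under ethylene.

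**Figure D1:**
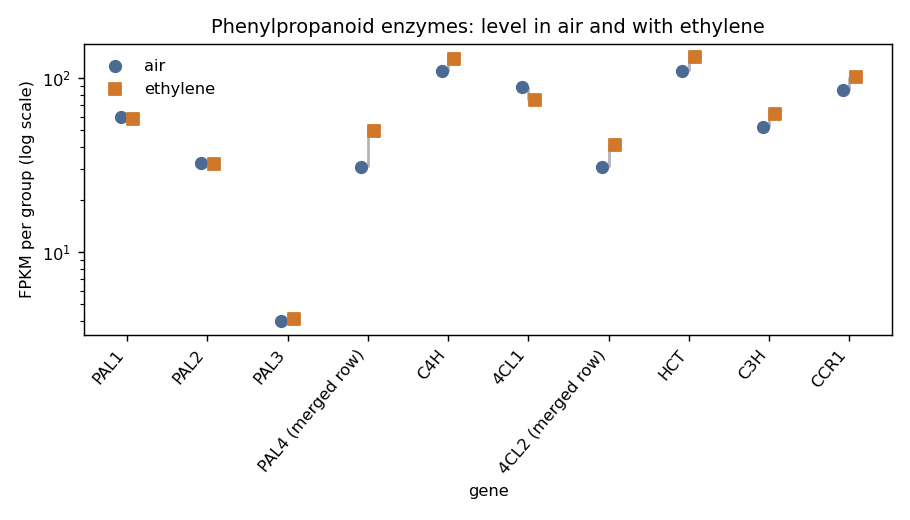
FPKM of the 10 genes in pathway order, on a log axis, with the authors' value for air as a circle and for ethylene as a square. Of the 8 rows of 1 locus, PAL3 lies near 4 FPKM in both groups and the other 7 lie between 32.04 and 131.9 FPKM.

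The 4 PAL genes catalyse the entry step. PAL1 and PAL2 are the copies best known from lignin and flavonoid supply, while PAL3 is usually weakly expressed. PAL1 had 59.7 FPKM in air against 58.3 FPKM under ethylene (log2 fold change -0.033, implied 95% interval -0.33 to 0.26). PAL2 had 32.6 FPKM in air against 32.04 FPKM under ethylene (log2 fold change -0.023, interval -0.35 to 0.30). PAL3 had 3.99 FPKM in air against 4.10 FPKM under ethylene (log2 fold change 0.039, interval -0.59 to 0.67). The ratio of ethylene to air was 0.978, 0.984 and 1.03 for these 3 genes, and the interval was widest for PAL3, the gene with the lowest level. The level of PAL1 was 1.83 times that of PAL2 in air and 1.82 times with ethylene. Of the summed FPKM of PAL1, PAL2 and PAL3, 96.2 in air and 94.5 with ethylene, PAL1 held 62.0% in air and 61.8% with ethylene. PAL3 held 4.15% and 4.34%.

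PAL4 shares its row with AT3G10350, so its own level cannot be read. In the TAIR10.1 annotation PAL4 lies on chromosome 3 from 3203988 to 3208135 on the plus strand, and AT3G10350 follows on the same strand after 97 bases. The merged row had 30.7 FPKM in air against 49.6 FPKM under ethylene, a log2 fold change of 0.69 with an implied interval from -0.0035 to 1.39. It was not called (the authors' Cuffdiff p, Benjamini-Hochberg adjusted, 0.270). Its fold, 1.62, was the largest among the 10 rows, and which of the 2 genes it comes from cannot be told apart.

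C4H is encoded by 1 gene in this species, and 4CL by a small family. C4H had 109.5 FPKM in air against 128.0 FPKM under ethylene, a log2 fold change of 0.23 (interval -0.06 to 0.51). 4CL1, the main ligase of the lignin branch, had 89.2 FPKM in air against 74.9 FPKM under ethylene. Its log2 fold change of -0.25 (interval -0.54 to 0.04, the authors' Cuffdiff p, Benjamini-Hochberg adjusted, 0.363) was the lowest of the 10 rows. 4CL1 was the only member called under any of the alternatives run. When centred on the reference genes, it was called lower (log2 fold change -0.51), with a Benjamini-Hochberg adjusted p of 0.00742 recomputed from its implied error. On that scale 14.9% of all tested rows were called lower and 0.588% higher. With the GC trend subtracted 4CL1 was not called (log2 fold change -0.44, Benjamini-Hochberg adjusted p recomputed from its implied error 0.0511).

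4CL2 stands in a row merged with ABCC8, a gene of an ABC transporter that lies 28 bases from it on the same strand. 4CL2 lies on chromosome 3 from 7454269 to 7457404 on the minus strand. The merged row had 30.8 FPKM in air against 41.1 FPKM under ethylene (log2 fold change 0.41, interval 0.05 to 0.78). Although this interval lay wholly above 0, the row was not called (the authors' Cuffdiff p, Benjamini-Hochberg adjusted, 0.183). Its p of 0.0249 in the authors' deposited table is unadjusted. The annotated transcript of ABCC8 has 5013 bases and that of 4CL2 2085, and the share of each gene in the row cannot be told apart.

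HCT, C3H and CCR1 catalyse the steps that commit coumaroyl-CoA to monolignols. HCT had 109.9 FPKM in air against 131.9 FPKM under ethylene (log2 fold change 0.26, interval -0.03 to 0.55). C3H had 52.3 FPKM in air against 62.3 FPKM under ethylene (log2 fold change 0.25, interval -0.13 to 0.63). CCR1 had 85.7 FPKM in air against 101.9 FPKM under ethylene (log2 fold change 0.25, interval -0.05 to 0.56). The 3 values and that of C4H lay between 0.23 and 0.26, next to the median of the reference genes, and 0 of the 4 were called. The direction of C4H, C3H and CCR1 turned when centred on the reference genes, where their log2 fold changes were -0.033, -0.0054 and -0.0080, and that of HCT was 0.0048. The level of HCT was 2.10 times that of C3H in air and 2.12 times with ethylene.

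**Figure D2:**
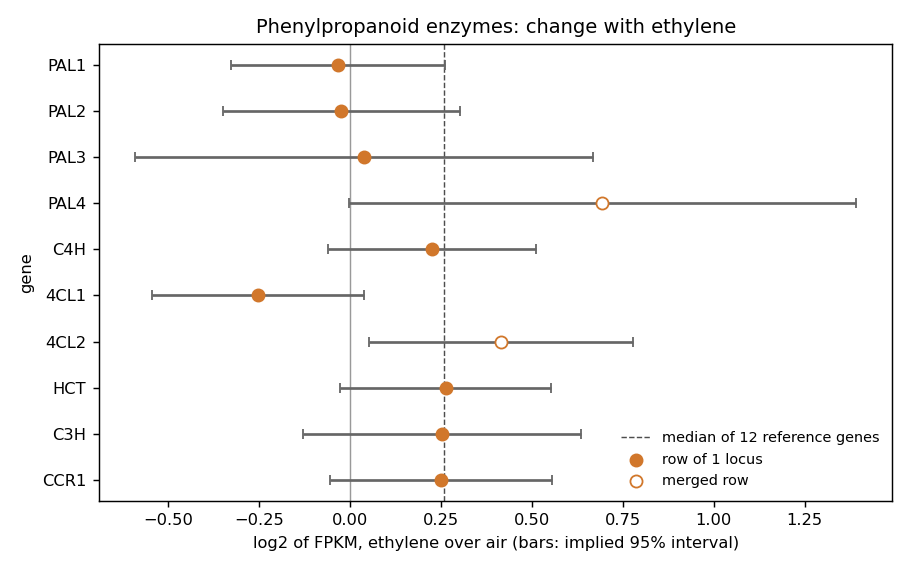
Log2 ratio of FPKM, ethylene over air, for the 10 genes, with the 95% interval implied by the deposited p-value as a bar. Open circles are merged rows, and the dashed line is the reference gene median of 0.26. All 8 filled circles have intervals that cross 0.

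The enzymes that act after the 10 members or beside them were taken as a list of 11 genes, of which 11 were tested, 0 were called higher and 1 lower, against 2.17% and 4.18% of all tested rows. CCoAOMT1, the methyltransferase that converts caffeoyl-CoA to feruloyl-CoA, fell from 317.0 to 204.1 FPKM (log2 fold change -0.64, the authors' Cuffdiff p, Benjamini-Hochberg adjusted, 0.00227). It had the highest level of the list in both groups. Its Benjamini-Hochberg adjusted p stayed between 9.9e-06 and 0.00416 over the alternatives, both recomputed from its implied error. Its deposited Cuffdiff p was the smallest given, 5e-05, so this error is only a bound. The list median was -0.26, against -0.02 for all tested rows. Other genes of the list are named after their values were seen. CSE, the esterase that frees caffeate from caffeoyl shikimate, had 75.2 FPKM in air against 59.8 FPKM under ethylene (interval -0.66 to -0.0037 on the log2 scale). COMT1, which methylates the ring on the way to syringyl units, had 154.6 FPKM in air against 124.3 FPKM under ethylene (interval -0.61 to -0.02). Both passed only when centred on the reference genes, where the adjusted p recomputed from the implied error was 0.00590 for CSE and 0.00263 for COMT1 (Benjamini-Hochberg). On that scale 14.9% of all tested rows were called lower.

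The other ligases of this list had low levels. 4CL3, the ligase known for flavonoid supply, had 3.05 FPKM in air against 8.35 FPKM under ethylene (log2 fold change 1.45, interval 0.08 to 2.82, the authors' Cuffdiff p, Benjamini-Hochberg adjusted, 0.233). 4CL5 had 4.33 FPKM in air against 2.78 FPKM under ethylene. Among the 3 ligases with rows of their own, 4CL1 held 92.4% of the summed FPKM in air and 87.1% with ethylene, and 4CL3 held 3.16% and 9.70%. CCR1 held 96.2% of the summed FPKM of CCR1 and CCR2 in air and 97.3% with ethylene. FAH1, the P450 enzyme at the entry to syringyl lignin, had 1.60 FPKM in air against 1.22 FPKM under ethylene. CAD4 and CAD5, which reduce the aldehydes to monolignols, stood higher. CAD4 had 36.3 FPKM in air against 34.8 FPKM under ethylene (log2 fold change -0.06), and CAD5 81.3 FPKM and 86.7 FPKM (0.09). ATR1 and ATR2, which pass electrons to the P450 enzymes of the pathway, had 136.7 FPKM and 70.2 FPKM in air against 137.7 FPKM and 83.2 FPKM under ethylene, and neither was called.

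In the side branches to esters and glycosides, 1 of 6 genes tested was called higher and 1 lower, against 2.17% and 4.18% of all tested rows. The list median was 0.46, against -0.02 for all tested rows. REF1, the aldehyde dehydrogenase that makes ferulate and sinapate, fell from 83.9 to 52.3 FPKM (log2 fold change -0.68, interval -1.06 to -0.30, the authors' Cuffdiff p, Benjamini-Hochberg adjusted, 0.0115). UGT72E1, a glucosyltransferase of monolignols and their aldehydes, rose from 11.8 to 20.4 FPKM (log2 fold change 0.79, interval 0.33 to 1.25, the authors' Cuffdiff p, Benjamini-Hochberg adjusted, 0.0188). Its call was lost when centred on the reference genes (0.53) and when the dependence on GC content was removed (0.62).

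The other genes of these branches, named after their values were seen, were not called. UGT72E2 had 37.1 FPKM in air against 51.5 FPKM under ethylene (interval 0.14 to 0.81). UGT72E3 had 1.64 FPKM in air against 4.54 FPKM under ethylene (interval 0.40 to 2.54). UGT84A2, which glucosylates sinapate, had 49.01 FPKM in air against 66.7 FPKM under ethylene (interval 0.13 to 0.75). For these 3 genes the interval lay above 0, with Benjamini-Hochberg adjusted p-values of 0.0699, 0.0833 and 0.0666. At a threshold of 0.1 all 3 were called higher. UGT84A2 was also called higher when centred on all tested rows (log2 fold change 0.47, Benjamini-Hochberg adjusted p recomputed from its implied error 0.0496). SNG1, which moves the sinapoyl group to malate, had a log2 fold change of 0.20 and an interval that crossed 0.

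**Figure D3:**
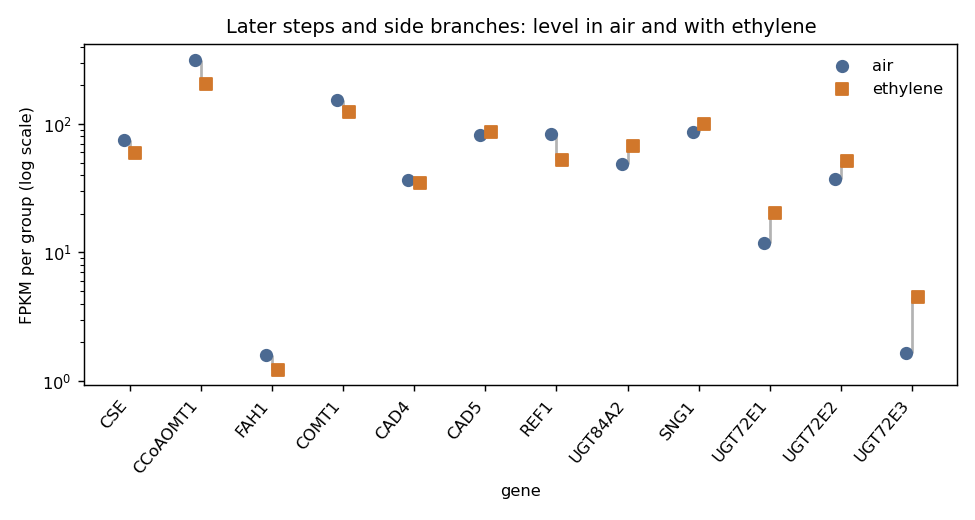
FPKM of 12 genes that act after the members or in side branches, on a log axis, with air as a circle and ethylene as a square. CCoAOMT1 and REF1 lie lower with ethylene and UGT72E1 higher, and these 3 were called.

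Genes that polymerize monolignols in the wall held 0 calls among 8 tested, against 2.17% of all tested rows called higher and 4.18% called lower. The peroxidase genes PRX72 and PRX64 had the highest levels, with log2 fold changes of -0.11 and -0.08. The laccase genes and PRX52 were named after their values were seen. LAC4, LAC11 and LAC17 had log2 fold changes of 0.43 (interval 0.03 to 0.82), 0.09 (-0.33 to 0.52) and -0.28 (-0.73 to 0.18). The list median was 0.22, and -0.04 when centred on the reference genes. PRX52 went from 0.118 to 1.55 FPKM, both low, with an interval that crossed 0.

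Phenylalanine comes from the shikimate pathway in plastids, and 0 of its 15 tested genes were called. Among all tested rows 2.17% were called higher and 4.18% lower. The list median was 0.22, and -0.04 when centred on the reference genes. On the deposited scale 11 of the 15 values were higher with ethylene, against 48% of all tested rows. An unadjusted Cuffdiff p under 0.05 was found for 4 of the 15, all higher, against 18.8% of all tested rows in either direction. DHS3, of the family that opens the pathway, had 74.6 FPKM in air against 93.1 FPKM under ethylene (interval 0.03 to 0.61). DHQS, which acts next, had 64.6 FPKM in air against 55.0 FPKM under ethylene (interval -0.55 to 0.09). It was called lower when the GC trend was subtracted or when centred on the reference genes, where 14.9% of all tested rows were called lower. ADT6, an arogenate dehydratase of the last step, was named after its value was seen, with 22.04 FPKM in air against 33.7 FPKM under ethylene. Its log2 fold change was 0.61 (interval 0.20 to 1.02, the authors' Cuffdiff p, Benjamini-Hochberg adjusted, 0.0519). It was called higher at a threshold of 0.1, with only rows of at least 5 FPKM tested and when centred on all tested rows. In this list DHS2, SK1 and CM2 lay in merged rows, which were not called.

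Of the transcription regulators of the pathway with a row of their own, 8 of 8 tested had lower values with ethylene and 1 was called lower. Of all tested rows 4.18% were called lower, and the value was above that in air in 48%, whatever the p. MYB7, an R2R3-MYB repressor related to MYB4, fell from 30.7 to 16.7 FPKM (log2 fold change -0.87, interval -1.36 to -0.39, the authors' Cuffdiff p, Benjamini-Hochberg adjusted, 0.0115). MYB4, a repressor of C4H, had 20.8 FPKM in air against 14.8 FPKM under ethylene (interval -0.96 to -0.03). It was called lower only when centred on the reference genes, where 14.9% of all tested rows were called lower. The list median was -0.84, against -0.02 for all tested rows, with 5 of the 8 genes below 5 FPKM in both groups and 6 intervals that crossed 0. Activators of lignin genes were among these. MYB4, MYB58 and MYB63 were named after their values were seen. MYB58 had 2.59 FPKM in air against 0.441 FPKM under ethylene, and MYB63 0.651 FPKM and 0.368 FPKM. MYB85, NST1 and NST3 were not tested, and NST3 was listed at 0 in both groups. MED5A and MED5B, Mediator subunits known as repressors of the pathway, lay in 2 further tested rows, each merged with neighbours. Both merged rows had higher values with ethylene (log2 fold changes 0.12 and 0.08) and were not called.

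PAL protein is known to be marked for breakdown by Kelch F-box proteins. Of 4 such genes tested, 0 were called, against 2.17% of all tested rows called higher and 4.18% called lower. KFB50 had 82.6 FPKM in air against 80.2 FPKM under ethylene, and KFB20 76.0 FPKM and 66.2 FPKM. KFB39, named after its value was seen, had 30.1 FPKM in air against 15.1 FPKM under ethylene (interval -1.73 to -0.26, the authors' Cuffdiff p, Benjamini-Hochberg adjusted, 0.0900). It was called lower at a threshold of 0.1, when the GC trend was subtracted and, together with KFB20, when centred on the reference genes. With that centring 14.9% of all tested rows were called lower. In the flavonoid branch, which shares coumaroyl-CoA, 1 of 6 tested genes was called higher, against 2.17% of all tested rows. That gene, F3H, which hydroxylates flavanones, rose from 5.18 to 20.7 FPKM. CHS, the first enzyme of that branch, was named after its value was seen. It had 89.1 FPKM in air against 118.0 FPKM under ethylene (interval 0.11 to 0.70) and was not called.

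**Figure D4:**
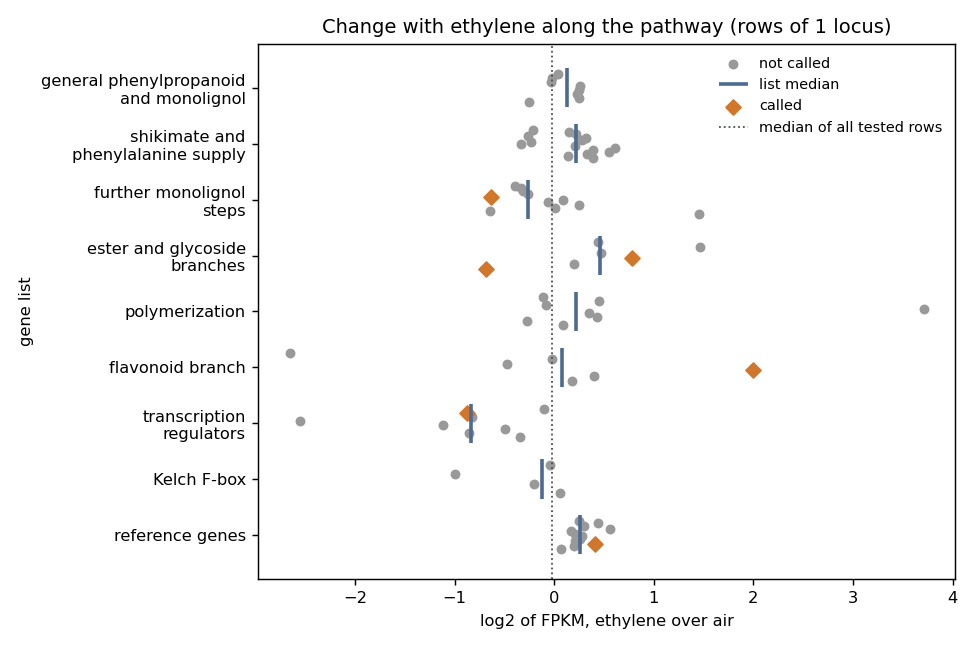
Log2 ratio of FPKM, ethylene over air, of each tested gene with a row of its own, by list. Bars are list medians, diamonds are called genes, and the dotted line is the median of all tested rows. The 8 members lie between -0.25 and 0.26, and none is called.

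Over the 7 lists around the members, 58 genes were tested, of which 2 were called higher and 3 lower, beside 2.17% and 4.18% of all tested rows. Markers of the cells that lignify were compared beside these values. Of 7 tested xylem rows, 2 of them from 1 gene, 0 were called, with higher values in 2 and lower values in 5. Their summed level, with 1 further untested gene included, was 130.9 FPKM in air against 121.6 FPKM under ethylene. XCP1 and XCP2, proteases of xylem vessels, had log2 fold changes of 0.22 (interval -0.19 to 0.63) and -0.35 (interval -0.67 to -0.02). Of 6 Casparian strip genes 1 was called higher, and their sum was 593.2 FPKM in air against 650.8 FPKM under ethylene. That gene, ESB1, needed for an intact strip, rose from 116.5 to 175.0 FPKM (log2 fold change 0.59, the authors' Cuffdiff p, Benjamini-Hochberg adjusted, 0.0180), a call lost when centred on the reference genes (0.33) and with the GC trend subtracted (0.18). The part of these cell types in the results was not tested. Of 4 genes typical of dark-grown seedlings, EXPA1 was called higher and PORA lower, and the lowest of their levels was 35.7 FPKM. EXPA1, an expansin, lost its call when centred on the reference genes (log2 fold change 0.42, Benjamini-Hochberg adjusted p recomputed from its implied error 0.0688). The deposited p of EXPA1 was the smallest given, so its implied error is only a bound. PORA, a marker of dark-grown shoots, fell from 1873.0 to 1146.7 FPKM, and the root gene PYK10, named after its value was seen, stood at 4093.2 FPKM in air against 3867.6 FPKM under ethylene. Of the mutated genes, DAZ3 was listed at 0 in both groups and TREE1 at 0 in air against 0.327 FPKM under ethylene, and neither had a test.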

How the data were processed

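RNA was sequenced from 4 libraries, 2 per group. Trizol extracts and a NEB library kit were used, per the labels' protocols. The submitters' processing notes name TopHat2 2.0.9, Cuffdiff 2.0.1 and the TAIR10 build. Settings, library scaling and the error model behind the p-values were not given in the sources used here. Per group 1 FPKM value was deposited by the authors (the unit is read from the name Cuffdiff), so depth per library is unknown and no SD can be given. They also deposited a p-value per row, which is not adjusted, per its header and values, and is never below 5e-05.

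The log2 ratio of ethylene over air was recomputed from both FPKM columns. It matched the deposited log2 fold change within 0.001 in 19947 of 19948 rows above 0 in both groups. Benjamini-Hochberg adjustment ran over 18696 named rows with a p below 1 and called 405 higher and 781 lower at 0.05. Another 13939 named rows had a p of 1 and were taken as not tested, since no test status was given. The 243 rows without a gene name, which held 86.0% of the summed FPKM in air and 88.9% under ethylene, stayed out. A standard error was implied from each p by a normal approximation. Intervals of 95% are printed for rows above the smallest p. The calculation was run on simulated data drawn under the same normal approximation, which cannot show whether the deposited p-values follow it.

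Members and lists were chosen with earlier results of these data known. Named genes are all members, up to 6 called genes of each other list or else its 2 genes with the highest FPKM, and genes said to be named after their values were seen. All 106 listed loci were found in the TAIR10.1 RefSeq annotation, which gave positions, GC content and sequences. The authors' table gives no positions. Alternatives were other thresholds, filters, pseudocounts, centring and subtraction of a trend with transcript GC content. Software was Python 3.11.15 with statsmodels 0.14.6, scipy 1.17.1, numpy 2.4.6, matplotlib 3.10.9 and pandas 2.3.3.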

Additional observations from a re-analysis of the deposited data

How the results depend on the processing

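No member was called at adjusted p thresholds of 0.01 and 0.1, with filters of 1 and 5 FPKM, with rows at a p of 1 included, with single-locus rows alone, when centred on all tested rows or when a GC trend was subtracted. When centred on the reference genes 0 members were higher and 1, 4CL1, lower. On that scale the log2 fold changes of PAL3, C4H, C3H and CCR1 turned to -0.22, -0.033, -0.0054 and -0.0080. With the GC trend subtracted those of PAL3, C3H and CCR1 turned to -0.27, -0.023 and -0.049. Pseudocounts of 0.1 and 1 FPKM turned none. PAL3 dropped out of the test with a filter of 5 FPKM.

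Of the 58 genes tested in the 7 lists around the members, 2 were called higher and 3 lower, against 2.17% and 4.18% of all tested rows. The counts were 1 and 1 at a threshold of 0.01, and 7 and 4 at 0.1. They were 1 and 9 when centred on the reference genes, where 0.588% of all tested rows were called higher and 14.9% lower. The counts for these lists were 1 and 5 with the GC trend subtracted, and 4 and 3 when centred on all tested rows. Of all 18696 tested rows, 405 were higher and 781 lower, against 190 and 409 at a threshold of 0.01, and 631 and 1089 at 0.1. They were 110 and 2793 when centred on the reference genes, which moved the median of all tested rows to -0.28. With the GC trend subtracted they were 261 and 846. The cause of these shifts was not tested. CCoAOMT1, REF1, MYB7 and F3H kept their calls under every alternative run at a threshold of 0.05 or 0.1. At 0.01 the calls of REF1, UGT72E1, MYB7, ESB1 and EF1A were lost. EF1A also lost its call with rows at a p of 1 included, when centred on the reference genes and with the GC trend subtracted.

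No paired analysis was possible because the columns hold 1 value per group and carry no replicate number, and no replicate was left out for the same reason.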
